A study of Mus musculus with 2 samples.

Results

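The miR-17~92 cluster is a set of 6 microRNA (miRNA) hairpins that are cut from 1 primary transcript, and its level was examined here in the young mouse adrenal gland. The members are the 6 genes Mir17, Mir18, Mir19a, Mir20a, Mir19b-1 and Mir92-1, taken by their symbols in the annotation from 2202 miRNA genes, by a rule that uses no measured value. Small RNA was sequenced from adrenal glands of male B6CASTF1/J mice, an F1 hybrid, on day 14 after birth. The study holds 1 group of 2 libraries, called replicate 1 and replicate 2, so there was no contrast between conditions and the questions were how much of each hairpin the gland holds and how far the libraries differed. Each library comes from its own biosample, whose label names 3 males, and both biosamples carry the same donor record, so what the spread between the libraries includes is not fully known. The labels name no treatment or genetic change.

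In animals, a primary miRNA transcript is cut by Drosha into hairpins and each hairpin by Dicer into a short duplex. One strand of it, the guide, is loaded into an Argonaute protein and pairs with messenger RNAs mainly through its seed, bases 2 to 8. The miR-17~92 cluster is driven by MYC proteins and acts on cell growth and survival: in the mouse its loss leads to small lungs and a block in B cell development, and its excess promotes B cell lymphoma. In humans it is high in neuroblastoma, a tumour of the lineage that forms the adrenal medulla, where MYCN raises it. Known targets of the miR-17 and miR-20 guides include the cell cycle inhibitor Cdkn1a, and miR-92a restrains the growth of blood vessels.

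All 6 hairpins lie on the plus strand of chromosome 14 of mm10, from 115043671 to 115044506, a span of 836 bases inside the exon 2 of the non-coding host gene Mir17hg (115042879 to 115046727, 2 exons). In the order of transcription they are Mir17 (115043671 to 115043754), Mir18 (115043851 to 115043946), Mir19a (115044000 to 115044081), Mir20a (115044157 to 115044263), Mir19b-1 (115044305 to 115044391) and Mir92-1 (115044427 to 115044506). The gaps between neighbours are 96, 53, 75, 41 and 35 bases, and no annotated gene lies on the opposite strand. Hairpin length runs from 80 bases in Mir92-1 to 107 in Mir20a, and GC content from 43.7% in Mir19b-1 to 47.5% in Mir92-1.

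The guides are shown because they sort the 6 hairpins into 4 seed groups, which the levels below follow in part. Each is written 5′ to 3′ with the seed in capitals, from RefSeq (GRCm38.p6), which held an entry for all 6 members.
miR-17-5p: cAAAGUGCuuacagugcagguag
miR-20a-5p: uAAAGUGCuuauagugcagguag
miR-18a-5p: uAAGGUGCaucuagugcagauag
miR-19a-3p: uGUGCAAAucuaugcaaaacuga
miR-19b-3p: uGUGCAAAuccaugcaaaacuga
miR-92a-3p: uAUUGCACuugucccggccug
Mir17 and Mir20a share the seed AAAGUGC, and their guides differ at 2 of 23 bases (C1U and C12U, with the base of miR-17-5p first and positions counted from the 5′ end). The seed of Mir18 is AAGGUGC. The guides of Mir19a and Mir19b-1 differ at 1 of 23 bases, U11C with the base of miR-19a-3p first.

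Mir19b-1 and Mir92-1 have near copies on the X chromosome, Mir19b-2 and Mir92-2, in a paralogous cluster. The 4 hairpins are shown with the longest stretch that each pair shares in capitals, since a read that lies inside it cannot be placed at 1 locus.
Mir19b-1: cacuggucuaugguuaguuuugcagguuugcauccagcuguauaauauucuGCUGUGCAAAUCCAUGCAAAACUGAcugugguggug
Mir19b-2: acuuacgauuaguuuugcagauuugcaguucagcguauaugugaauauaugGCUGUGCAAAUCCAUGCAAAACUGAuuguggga
Mir92-1: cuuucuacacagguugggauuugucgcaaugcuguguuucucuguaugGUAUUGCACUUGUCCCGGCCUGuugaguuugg
Mir92-2: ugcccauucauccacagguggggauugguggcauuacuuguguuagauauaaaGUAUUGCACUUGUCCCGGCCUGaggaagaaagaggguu
The shared stretch is 25 bases in the miR-19b pair and 22 bases in the miR-92a pair, and it holds the whole guide in both. The guides of Mir17, Mir18, Mir19a and Mir20a were each found in 1 annotated miRNA hairpin, and these 4 hairpins share no 20-base stretch with another miRNA gene. The rest of the genome was not searched.

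The files count whole reads per hairpin, so the 5′ and 3′ arms are not separated. Replicate 1 had 3024662 reads on the sense strand of miRNA genes and replicate 2 had 3464837. Levels are given in CPM, counts scaled to a common total of these reads, and were not divided by length, since each read is about 1 mature miRNA long. One count was 0.331 CPM in replicate 1 and 0.289 CPM in replicate 2. Multimapping reads, which no gene receives, made up 27.5% of the reads of replicate 1 and 29.4% of those of replicate 2. How many of them came from the members was not tested. The libraries stood apart in several markers of other cells, given below beside the members' differences. Mir122, the miRNA of hepatocytes, differed by the largest fold among them, at 3786 CPM in replicate 1 and 49474 CPM in replicate 2. Mir375 of neuroendocrine cells was at 26615 and 29592 CPM in replicates 1 and 2. Among the muscle markers Mir206 was at 5.95 and 9.52 CPM, and Mir1a-1 and Mir133a-1 were listed at 0 counts, which does not bound their level where reads map to several places. In each library 3 counts, the limit that a count of 0 allows, were 0.992 and 0.866 CPM. No miRNA specific to adrenal cortex was among the markers. Errors are SD with n = 2. Intervals are exact at 95% and leave out any error but that of counting, as copies made by PCR are not separate molecules.

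Together the 6 hairpins took 33641 counts in replicate 1 and 31579 in replicate 2, which is 1.11% (interval 1.10 to 1.12) and 0.911% (0.901 to 0.921) of all miRNA counts. The mean was 1.01% ± 0.142, or 10118 ± 1420 CPM. Mir17 and Mir20a held most of the counts, Mir92-1 and Mir18 came next, and both miR-19 hairpins were near the limit of detection. The guides of Mir92-1 and Mir19b-1 lie whole in stretches shared with copies on the X chromosome. Reads that cannot be placed at 1 locus are left out of their levels, shares and ratios, here and below. A level of 2 CPM in each library was reached by 364 of the 2202 genes, and 5 of the 6 members were among them, all but Mir19a.

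Mir17, the first hairpin and the name giver of the growth-promoting miR-17 family, was the highest member. It had 18935 counts (6260 CPM) in replicate 1 and 15913 counts (4593 CPM) in replicate 2, a mean of 5426 ± 1179 CPM and place 35 among all miRNA genes. Mir20a, the fourth hairpin, has the same seed and was at 3140 CPM in replicate 1 and 2511 CPM in replicate 2, a mean of 2825 ± 445 and place 45. Both libraries put Mir17 first and Mir20a second among the members, and their ranges did not overlap.

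Mir92-1, the last hairpin, whose guide miR-92a is known from endothelial cells, was at 1022 CPM in replicate 1 and 1269 CPM in replicate 2. Its mean was 1146 ± 175 CPM, place 72. Mir18, the second hairpin, was at 696 CPM in replicate 1 and 731 CPM in replicate 2, a mean of 713 ± 24.6 CPM and place 97. Its range did not overlap that of Mir92-1. Both were therefore below Mir20a and far above the miR-19 hairpins in each library.

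The miR-19 hairpins were the lowest. Mir19b-1 had 8 counts (2.64 CPM) in replicate 1 and 26 counts (7.5 CPM) in replicate 2, and Mir19a had 5 counts (1.65 CPM) and 10 counts (2.89 CPM). Their means were 5.07 ± 3.44 and 2.27 ± 0.872 CPM, at places 332 and 388 among all miRNA genes. All 4 values are above the limit of 3 counts, and the ranges of the 2 hairpins overlap, so these were the only neighbours in the order of levels that did not differ beyond their spread. The cause of these low counts was not tested.

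**Figure D1:**
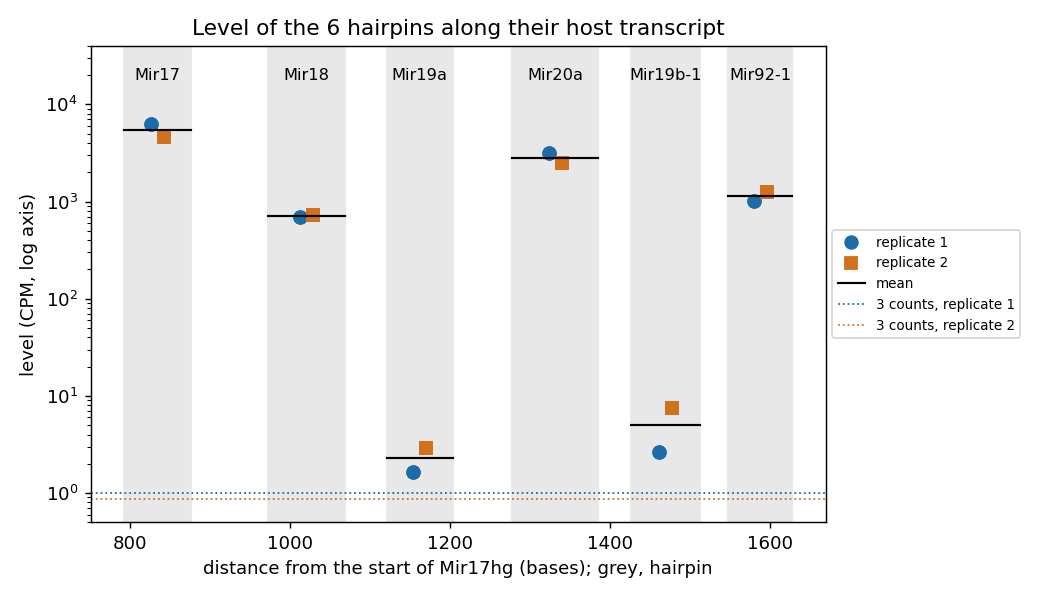
Level of each hairpin in CPM (log axis) against its distance from the start of Mir17hg in bases. Circles are replicate 1, squares replicate 2, black lines the mean of both, grey bands the hairpins and dotted lines the level of 3 counts in each library. Mir17 and Mir20a lie at 2511 CPM or more, whereas Mir19a and Mir19b-1, which flank Mir20a, lie below 8 CPM.

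Levels did not follow the order of the hairpins along the transcript. The first and the fourth hairpin, which share the seed AAAGUGC, were the highest, and the third and the fifth, which share the seed GUGCAAA, were the lowest. GC content, from the highest member to the lowest, was 45.2% in Mir17, 45.8% in Mir20a, 47.5% in Mir92-1, 43.8% in Mir18, 43.7% in Mir19b-1 and 43.9% in Mir19a. Mir18 and Mir19a, alike in GC content, had mean levels of 713 and 2.27 CPM. A link of level to GC content was not tested. All 6 hairpins had 0 counts on the opposite strand in both libraries, and counts of either strand equalled the sense counts.

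Of the counts of the cluster, Mir17 held 56.3% in replicate 1 (interval 55.8 to 56.8) and 50.4% in replicate 2 (49.8 to 50.9). Mir20a held 28.2% and 27.5%, with overlapping intervals (27.7 to 28.7 and 27.1 to 28.0). Mir92-1 held 9.19% in replicate 1 (8.88 to 9.50) and 13.9% in replicate 2 (13.5 to 14.3), and Mir18 held 6.26% (6 to 6.52) and 8.02% (7.72 to 8.32). The make-up of the cluster thus differed between the libraries by more than counting error in Mir17, Mir92-1 and Mir18. Mir19b-1 held 0.0238% and 0.0823%, and Mir19a 0.0149% and 0.0317%.

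**Figure D2:**
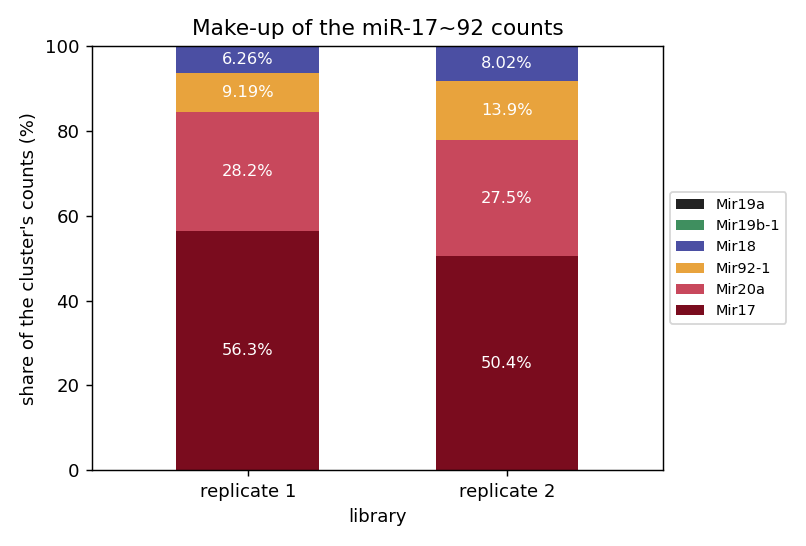
Share of the cluster's counts in percent held by each hairpin, 1 stacked bar per library. Mir17 is the largest part of both bars (56.3% and 50.4%) and Mir92-1 is larger in replicate 2 (13.9%, against 9.19%). Mir19b-1 and Mir19a, each under 0.1%, are too thin to be seen.

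Because the members come from 1 transcript, each was also set against Mir17 within its library, where library size cancels. Mir20a stood at 0.502 of Mir17 in replicate 1 (0.489 to 0.514) and 0.547 in replicate 2 (0.533 to 0.561). This ratio changed least of the 5 between the libraries. The ratio of Mir18 to Mir17 was 0.111 (0.106 to 0.116) in replicate 1 and 0.159 (0.153 to 0.166) in replicate 2. For Mir92-1 it was 0.163 (0.157 to 0.170) in replicate 1 and 0.276 (0.267 to 0.286) in replicate 2, a 1.69-fold difference between the libraries. All 5 ratios were higher in replicate 2. They share the denominator Mir17, whose level had the largest ratio of replicate 1 to replicate 2 among the members (1.36). Their common direction follows from this and is not 5 separate results.

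The ratio of Mir19b-1 to Mir17 was 0.000422 (0.000182 to 0.000833) in replicate 1 and 0.00163 (0.00107 to 0.00239) in replicate 2. That of Mir19a to Mir17 was 0.000264 (8.57e-05 to 0.000616) and 0.000628 (0.000301 to 0.00116). For Mir19a the intervals of the libraries overlap and for Mir19b-1 they do not. Mir92-1 and Mir18, the nearest neighbours among the abundant members, had a ratio of 1.47 (1.39 to 1.55) in replicate 1 and 1.74 (1.65 to 1.82) in replicate 2.

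**Figure D3:**
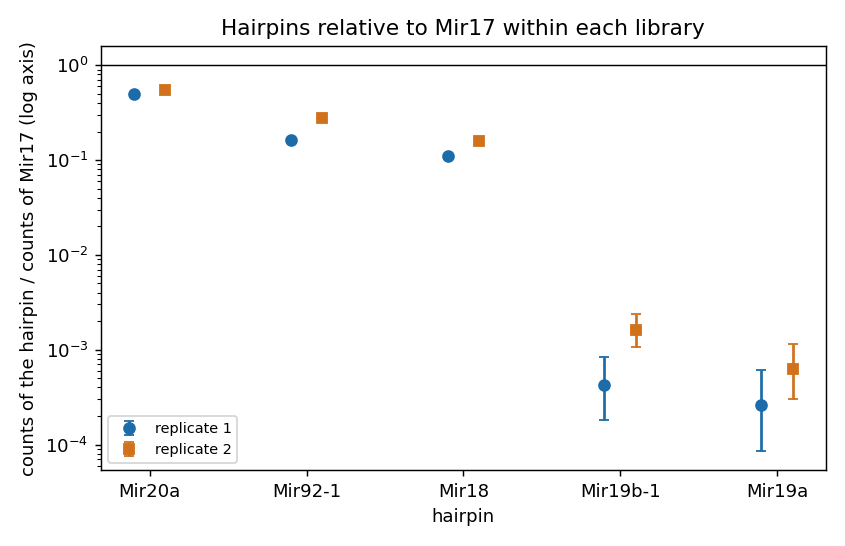
Counts of each hairpin divided by the counts of Mir17 in the same library (log axis), with exact 95% intervals for counting error. Circles are replicate 1, squares replicate 2, and the line at 1 marks Mir17. Mir20a stays near 0.5 in both libraries and both miR-19 hairpins lie below 0.003.

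Levels in the libraries were set against each other with an exact two-sided binomial test on each gene with 10 or more counts, adjusted by Benjamini-Hochberg over all 413 genes tested. It compares libraries and says nothing about a condition. Its p-values measure counting error alone and leave out any further spread between libraries. Of the 6 members 4 passed, 2 higher and 2 lower in replicate 1, and over all genes 55.4% passed, with 26.6% higher and 28.8% lower in replicate 1. Members thus passed at about the rate of all genes. Mir17 had a ratio of 1.36 (1.33 to 1.39) of replicate 1 to replicate 2, and the log2 ratio of Mir20a was 0.32 (ratio interval 1.21 to 1.29), both higher in replicate 1 by the exact test (adjusted p = 4.15e-182 and 1.67e-50). Mir92-1 had a ratio of 0.805 (0.769 to 0.843) and Mir19b-1 of 0.352 (0.138 to 0.802), both lower in replicate 1 by that exact test (adjusted p = 7.76e-20 and 0.0181). The 2 hairpins of the AAAGUGC seed were thus higher and Mir92-1 and Mir19b-1 lower in replicate 1.

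Mir18 had a ratio of 0.952 (0.898 to 1.01) and Mir19a of 0.573 (0.154 to 1.84), and neither passed the exact test (adjusted p = 0.156 and 0.549). With unstranded counts the ratio of Mir18 turned to 1.05 and, with the 10 most abundant genes left out of the total, to 1.11, where it passed. Those 2 scalings shifted the median of the 189 genes at 100 CPM or more by 0.14 and 0.22 on the log2 scale toward replicate 1. All genes that passed split into 110 higher and 119 lower in replicate 1, against 139 and 74 with unstranded counts and 171 and 82 without the 10 genes. The calls of Mir17, Mir20a, Mir92-1 and Mir19b-1 kept their direction under both, and the ratio of Mir92-1 came to 0.884 and 0.936. By size, the 4 members at 100 CPM or more differed by a median of 0.32 on the log2 scale and all 189 genes at that level by 0.33, and 161 of the 189 differed by less than 2-fold. The biological coefficient of variation over 413 genes was 38.0% (edgeR).

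**Figure D4:**
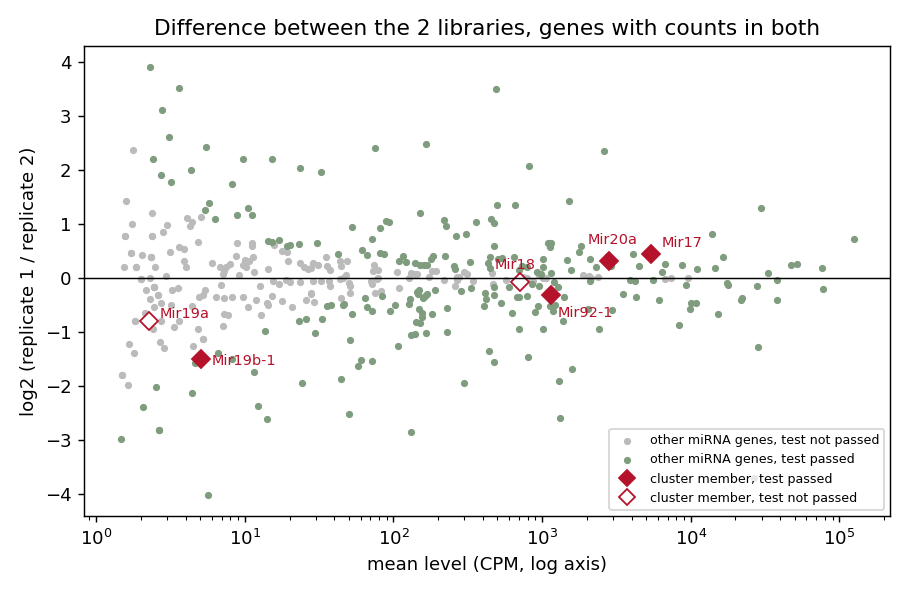
Log2 of the ratio of replicate 1 to replicate 2 against the mean level in CPM (log axis), for the tested miRNA genes with counts in both libraries. Diamonds are the members, filled where the exact test passed; green and grey dots are other genes that passed or did not. Mir17 and Mir20a lie above 0, Mir92-1 and Mir19b-1 below it, among the dots of the other genes.

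Several markers of other cells also differed between the libraries, where over all genes tested 26.6% were higher and 28.8% lower in replicate 1. The white blood cell list summed to 4878 CPM in replicate 1 and 2610 CPM in replicate 2, with 4 of its 5 genes higher and 1 lower in replicate 1. The erythroid list summed to 43959 and 19202 CPM, with 2 of 3 higher and 0 lower, and the endothelial list to 155649 and 94739 CPM, with 1 of 2 higher and 1 lower. The endothelial gene lower in replicate 1 was Mir126b, which lies inside Mir126a on the opposite strand. Its 7 and 24 counts equal the opposite-strand counts of Mir126a. In the unstranded column Mir451a, Mir486 and Mir142 have 0 counts, and Mir126a fell from 470778 and 328230 counts to 6 and 12. With these counts the lists came to 3784 and 2315 CPM (white blood cell), 2983 and 2663 CPM (erythroid) and 2.83 and 4.49 CPM (endothelial). The last sum thus holds only these few counts of Mir126a, as Mir126b had 0 counts in that column. The mesenchymal list summed to 52373 CPM in replicate 1 and 44598 CPM in replicate 2, with 1 of 2 higher and 0 lower.

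Higher in replicate 2 were Mir122, the only hepatocyte marker, and a list named kidney epithelial (834 CPM in replicate 1 and 1718 CPM in replicate 2). Of its 4 genes, Mir192, Mir194-2 and Mir203 were lower in replicate 1 and Mir200c higher. Mir203 held most of these counts (697 and 1344 CPM), and whether kidney cells were their source was not tested. The neuroendocrine list was at 30735 and 33904 CPM, with 2 of 2 lower in replicate 1. Its calls turned to 2 of 2 higher without the 10 most abundant genes in the total and to 1 higher and 1 lower with unstranded counts. The striated muscle list was at 5.95 and 9.52 CPM, with Mir1a-1 and Mir133a-1 at 0. In bulk tissue, fewer cells of a type and less RNA per cell cannot be told apart. The part of these cells in the members' differences was not tested.

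Mice have 2 paralogous clusters that descend from the same ancestral set. The miR-106b~25 cluster lies in the cell cycle gene Mcm7 on the minus strand of chromosome 5 (138165321 to 138165818) and holds Mir106b, Mir93 and Mir25. The X-linked cluster lies on the minus strand of the X chromosome (52741693 to 52742567) and holds Mir106a, Mir18b, Mir20b, Mir19b-2, Mir92-2 and Mir363. The guides of the miR-17 group are shown so that the letters that tell the paralogs apart can be seen, seed in capitals.
miR-17-5p: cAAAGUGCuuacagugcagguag
miR-106a-5p: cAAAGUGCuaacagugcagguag
miR-20b-5p: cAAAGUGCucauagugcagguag
miR-93-5p: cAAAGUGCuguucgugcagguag
miR-106b-5p: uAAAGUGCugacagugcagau
Against miR-17-5p, whose base is given first, miR-106a-5p differs by U10A alone and miR-20b-5p by U10C and C12U. The guide of Mir93 differs by U10G, A11U, C12U and A13C, and that of Mir106b by C1U, U10G and G20A over the 21 bases compared.

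The miR-17~92 cluster was at 11122 CPM in replicate 1 and 9114 CPM in replicate 2, against 7862 and 7980 CPM for the miR-106b~25 cluster. Their ratio came to 1.41 (1.39 to 1.44) and 1.14 (1.12 to 1.16), so miR-17~92 was the higher in both libraries by more than counting error. Without Mir19b-1 and Mir92-1, the members that share a 20-base stretch with another gene, the ratio was 1.28 (1.26 to 1.31) in replicate 1 and 0.982 (0.966 to 0.999) in replicate 2. This removal kept all 3 hairpins of miR-106b~25, Mir25 among them, so it could only lower the ratio. The X-linked cluster was far lower, at 317 CPM in replicate 1 and 197 CPM in replicate 2, and miR-17~92 exceeded it 35.1-fold (32.9 to 37.4) and 46.2-fold (42.8 to 49.9). Of the counts of all 3 clusters, miR-17~92 held 57.6% in replicate 1 and 52.7% in replicate 2. No test of these levels was made, since an exact sign-flip test over 2 libraries cannot go below p = 0.5.

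Hairpin by hairpin, the 5 members with a counterpart in the X-linked cluster exceeded it in both libraries, though for Mir19b-1 the interval in replicate 1 included 1. Mir17 exceeded Mir106a 51.9-fold (46.8 to 57.7) in replicate 1 and 79.2-fold (68.9 to 91.4) in replicate 2. Mir20a exceeded Mir20b 25.1-fold (22.7 to 27.9) and 41.4-fold (36.1 to 47.7). Mir92-1 exceeded Mir92-2 20.9-fold (17.7 to 24.8) and 35.5-fold (29.7 to 42.7), over reads that can be placed at 1 of them. Mir18 exceeded Mir18b, which had 6 and 7 counts, 351-fold (161 to 957) and 362-fold (175 to 901). Mir19b-1 was 2.67-fold (0.640 to 15.6) and 5.20-fold (1.96 to 17.3) Mir19b-2, which had 3 and 5 counts. Mir19a has no counterpart there.

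Against the miR-106b~25 cluster the picture differed by hairpin. Mir17 and Mir93 overlapped: Mir17 was at 6260 and 4593 CPM and Mir93 at 5499 and 5631 CPM in replicates 1 and 2, so that their ratio was above 1 in replicate 1, at 1.14 (1.11 to 1.16), and below it in replicate 2, at 0.816 (0.799 to 0.833). Mir20a was lower than Mir93 in both libraries, at ratios of 0.571 (0.557 to 0.586) and 0.446 (0.435 to 0.457). Mir17 was 3.27-fold (3.18 to 3.37) and 2.49-fold (2.42 to 2.56) Mir106b. Mir92-1, whose guide shares the seed AUUGCAC with that of Mir25, was 2.27-fold (2.13 to 2.42) and 2.52-fold (2.39 to 2.67) Mir25. Only reads that can be placed at 1 locus enter this ratio.

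**Figure D5:**
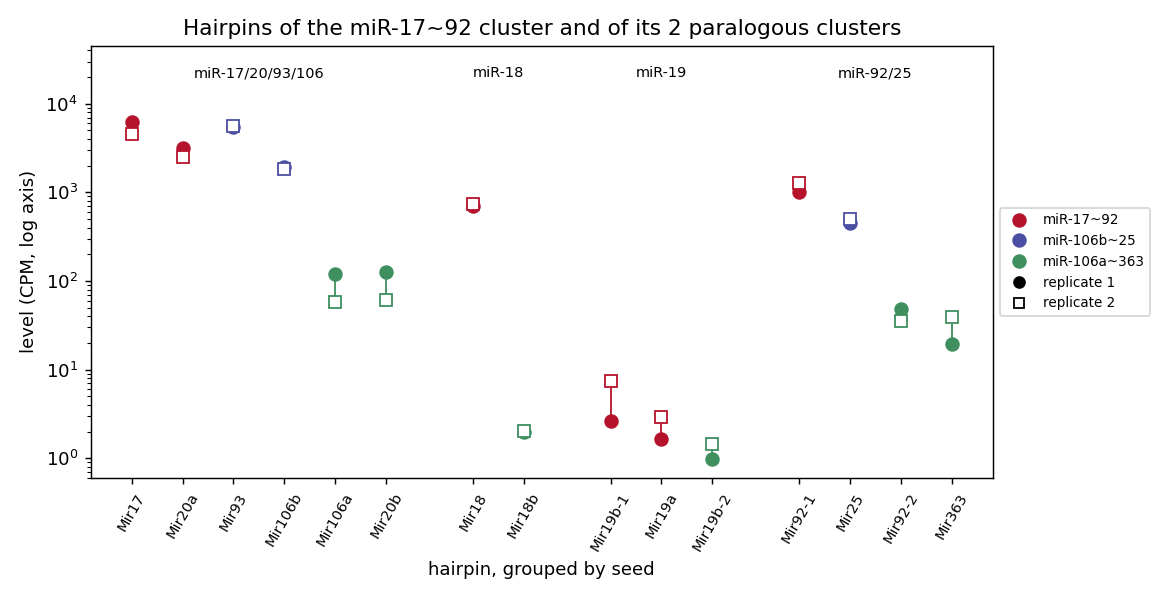
Level in CPM (log axis) of each hairpin of the 3 clusters, grouped by seed. Filled circles are replicate 1, open squares replicate 2, joined by a line, and colour marks the cluster. The miR-17~92 hairpins lie above their X-linked counterparts in every seed group, whereas Mir93 lies level with Mir17.

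Between the libraries, the X-linked counterparts of Mir17 and Mir20a had the direction of these members. Mir106a had a ratio of 2.08 (1.75 to 2.48) of replicate 1 to replicate 2 and Mir20b of 2.06 (1.74 to 2.45), both higher in replicate 1 by the exact test (adjusted p = 6.76e-17 and 3.29e-17). Mir92-2 had a ratio of 1.37 (1.07 to 1.75) and was higher in replicate 1 (exact test, adjusted p = 0.0209), whereas Mir92-1 was lower. Mir363, X-linked and of the same seed, had a ratio of 0.493 (0.357 to 0.674) and was lower, like Mir92-1 (exact test, adjusted p = 8.12e-06). These directions held with unstranded counts and without the 10 most abundant genes in the total. Mir106b, at 1.04, did not pass (exact test, adjusted p = 0.0788). It passed as higher with unstranded counts (1.14), with TMM library sizes (1.06) and without those genes (1.21). Mir93, at 0.977 (0.956 to 0.997), and Mir25, at 0.895 (0.833 to 0.961), passed the exact test as lower in replicate 1 (adjusted p = 0.0451 and 0.00506), but Mir93 turned to 1.07 with unstranded counts and 1.14 without those genes, where it passed as higher, and did not pass with TMM library sizes (ratio 0.995), and Mir25 came to 0.983 and 1.04 and passed in neither.

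Summed over all measured miRNA genes with the same seed in RefSeq, Mir17 and Mir20a supplied 55.1% in replicate 1 and 48.3% in replicate 2 of the 17058 and 14699 CPM of the AAAGUGC group. Here 7 genes were measured, and Mir6383 had 0 counts. Mir18 supplied 99.7% of the 698 and 733 CPM of the AAGGUGC pair in both libraries. The AUUGCAC group summed to 1635 and 1956 CPM, of which Mir92-1 supplied 62.5% and 64.9%. Its other genes at 2 CPM or more in both libraries were Mir25, Mir32 at 82.6 ± 9.73 CPM, Mir92-2, Mir363 and Mir92b at 18.8 ± 0.378 CPM, while Mir367, of pluripotent cells, had 0 counts. The 3 genes of the GUGCAAA seed, Mir19a, Mir19b-1 and Mir19b-2, summed to only 5.29 CPM in replicate 1 and 11.8 CPM in replicate 2. These sums count both arms of a hairpin and leave out reads that map to several places. The guide of Mir92-1 lies whole in the stretch shared with Mir92-2, and that of Mir19b-1 in the stretch shared with Mir19b-2. The shares of these seed groups therefore need not be shares of the guides, which was not tested.

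The miRNA genes most like each member were found as the 2 others at the smallest distance in log2(CPM + 1) over the 2 libraries, a likeness that rests on 2 points of 1 condition. For Mir17 these were Mir93, at a distance of 0.35, and Mir541 of the imprinted Dlk1-Dio3 region, at 0.41 and 4478 ± 468 CPM. For Mir20a they were Mir16-1, of the miR-15/16 family known to restrain the cell cycle, at 0.01 and 2833 ± 445 CPM, and Mir382 at 0.08. Mir92-1 was nearest to Mir872 (0.15) and Mir409 (0.17), and Mir18 to Mir341 (0.10) and Mir615, which lies in the Hoxc cluster (0.15). Among genes of very few counts, Mir1934 had the same level as Mir19a in both libraries and Mir3475 was at a distance of 0.10. Mir126b (0.17) and Mir128-2 (0.21) were nearest to Mir19b-1.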

How the data were processed

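MicroRNA-seq was done on 2 adrenal gland libraries. The authors deposited 1 table of raw counts per library, with 1 line per miRNA gene, on mm10 with GENCODE M21, per the read-me text the authors deposited with the tables. No source used here names the aligner or the counter. Of 3 count columns (either strand, sense, opposite strand), sense counts were used and 4 summary rows were left out. Sense miRNA counts came to 42.2% and 40.9% of reads in replicates 1 and 2, and summary rows held the others, among them unmapped reads (23.5% and 23.0%). All 2202 identifiers matched GENCODE M21. RefSeq sequences (GRCm38.p6) matched 15 of 15 hairpins of the 3 clusters, each identical to the GENCODE transcript, and 1032 of all 2202 symbols.

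CPM used the total over miRNA genes. Ratios have exact conditional intervals and shares exact Clopper-Pearson intervals, both at 95%. Libraries were compared by an exact binomial test (Benjamini-Hochberg, threshold 0.05) over genes with 10 or more counts in all. The test was tried on data simulated with counting error alone, which leaves out the further spread between real libraries. Named genes are the members, the paralogs, genes of the same guide seed at 2 CPM or more in both libraries and the 2 nearest genes to each member; a gene of the same seed with 0 counts is named besides. The rule for the members uses no measured value, but the cluster, the lists, markers and tests were chosen with earlier results of these data known. Alternatives were unstranded counts, each library alone, TMM and DESeq2 size factors, other totals, other minimum counts and the removal of hairpins with a shared 20-base stretch; applying the scalings to the paralogs and marker lists was chosen after seeing the data. Tests and intervals came from SciPy 1.17.1 under Python 3.11.15. Size factors and the dispersion came from DESeq2 1.42.0 and edgeR 4.0.16 under R 4.3.3.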

Additional observations from a re-analysis of the deposited data

Results flagged for a closer look

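Reads outside the miRNA rows were above the limit of 3 counts, with no control samples to set them against. Reads that map to several places, which could include guides shared by Mir19b-1 with Mir19b-2 and by Mir92-1 with Mir92-2, amounted to 27.5% in replicate 1 and 29.4% in replicate 2. Reads in no miRNA gene came to 6.79% in replicate 1 and 6.65% in replicate 2. Ambiguous reads of the unstranded column were 12.6% in replicate 1 and 9.37% in replicate 2, and none of the 6 members lost counts in that column. A group of 2 libraries allows no search for outlying samples, and 1 group none for differences between groups.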

How the results depend on the processing

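Of 153 alternatives over 31 results, 126 were kept, 25 moved and 2 reversed. A value was kept if it stayed within the spread or on its side of the threshold. A count of calls was kept if it stayed within a set fold of the main count. Part of this outcome was fixed in advance, since each library alone always lies within the SD of the 2 libraries. Members and paralogs also had equal sense and unstranded counts, so unstranded counts could not change the ratios between them or the shares within a cluster. The order of the 6 hairpins was the same in each library, and for that reason it could not differ between sense and unstranded counts. With the 10 most abundant genes left out of the total, mean levels were 12136 CPM for Mir17, 1574 for Mir18, 4.92 for Mir19a, 6299 for Mir20a, 10.8 for Mir19b-1 and 2512 for Mir92-1, and 22537, 17503 and 579 for the miR-17~92, miR-106b~25 and X-linked clusters. With all reads of the file as the total they were 2259 for Mir17, 296 for Mir18, 0.938 for Mir19a, 1175 for Mir20a and 475 for Mir92-1, and 4208, 3288 and 107 for those clusters. With unstranded counts they were 7440 for Mir17, 970 for Mir18, 3866 for Mir20a and 1552 for Mir92-1, and 13837, 10779 and 354 for the clusters, and the cluster share was 1.38%. These are changes of the total, which is smaller or larger by construction. The ratio of replicate 1 to replicate 2 of Mir18 reversed to 1.05 with unstranded counts and to 1.11 without the 10 genes. Its counts (2105 in replicate 1 and 2532 in replicate 2) were the same in these settings, so only the totals changed. Without hairpins that share a 20-base stretch, the mean ratio of miR-17~92 to miR-106b~25 was 1.13, against 1.28, and below 1 in replicate 2 (0.982). Only miR-17~92 lost hairpins in this step, so the ratio could only fall. With a minimum of 100 counts, Mir19a and Mir19b-1 were not tested. Counts of called genes ran from 197 to 253 over the alternatives, against 229, and those of called members from 3 to 5, against 4. Depth limits statements on the miR-19 hairpins, which had at most 26 counts. No paired analysis was possible because there is only 1 group.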
